A study of Mus musculus with 56 samples.

Results

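This report follows 10 genes that mark the endothelial cells of the liver sinusoids, namely Pecam1, Stab1, Stab2, Lyve1, Clec4g, Fcgr2b, Oit3, Gpr182, Cdh5 and Eng, in the livers of mice treated with BCR-ABL1 tyrosine kinase inhibitors. The genes are a list of known markers, given by name. All 10 were found by Ensembl identifier among the 45513 genes of the count tables, and all 10 were among the 14314 genes that had enough reads to be tested.

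Liver RNA came from 56 female APOE*3Leiden.CETP mice, 8 per group. The mice were 9 to 14 weeks of age at the start, and the livers were taken months later, at the end of treatment. These transgenic mice carry the human APOE*3-Leiden variant and human CETP, the cholesteryl ester transfer protein, and have a lipoprotein profile nearer to that of humans than ordinary mice have. Every mouse, controls included, ate a Western-type diet with 15% cacao butter and 0.15% cholesterol. Control mice were gavaged with the vehicle, 5% carboxymethyl cellulose. Imatinib was given at 150 mg/kg by 2 gavages per day, nilotinib at 10 or 30 mg/kg and ponatinib at 3 or 10 mg/kg by 1 gavage per day. A further daily gavage, of vehicle only, was given in every group but imatinib. A further group received L-NAME, an inhibitor of nitric oxide synthase, at 0.12 to 0.20% in the drinking water. Only females were studied, and each library holds RNA of whole liver tissue.

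Sinusoidal endothelial cells line the capillaries of the liver. They have open pores and no continuous basement membrane, and they are among the most active scavenger cells of the body, taking up modified lipoproteins, hyaluronan, matrix fragments and small immune complexes from the blood. Stab1 and Stab2 encode the stabilins, large scavenger receptors, and Stab2 binds hyaluronan. Lyve1 encodes another hyaluronan receptor. Clec4g encodes LSECtin, a C-type lectin, and Fcgr2b the inhibitory Fc gamma receptor IIb, which clears immune complexes in these cells. Oit3 is a secreted zona pellucida domain protein of liver, and Gpr182 an atypical chemokine receptor. Pecam1 (CD31) and Cdh5 (VE-cadherin) are adhesion molecules of endothelial cells in general, and Eng (endoglin) is the co-receptor for BMP9 and BMP10.

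Reads counted on genes ranged from 5342379 to 97473341 per library, with a median of 7570238. The highest total belonged to L-NAME mouse 10, whose share of reads outside annotated genes was also the highest, at 16.8% against 7.55 to 15.2% in the other libraries. Controls had the lowest mean share outside genes, 7.97% ± 0.42 (SD, n = 8), and ponatinib 10 mg/kg the highest, 11.0% ± 1.99 (SD, n = 8). The slope of expression on transcript length in a library, called the length slope, also moved with the groups. It used the longest transcript of each gene. It ran from 0.036 to 0.178 in controls and from -0.0681 to 0.00690 with nilotinib 30 mg/kg. The share outside genes ran from 7.55 to 8.68% and from 9.41 to 12.7%, so that these groups did not overlap in either measure. L-NAME mice (-0.113 to 0.0066, and 8.82 to 16.8%) also overlapped controls in neither measure. In the share outside genes, nilotinib 10 mg/kg (9.14 to 11.0%) and ponatinib 10 mg/kg (8.90 to 15.2%) lay wholly above controls too. The part of these measures in the results was not tested beyond the fits with each as a covariate. These fits are given for the 10 markers only, beside the larger of the moves. For the lists of other genes they are not given. Levels are given as CPM, counts scaled to library size after TMM normalisation. All groups were tested in a single edgeR quasi-likelihood fit of the 56 mice, and a gene was called at a Benjamini-Hochberg adjusted p below 0.05. Shares of all genes called come from this fit, and none are given for fits by other methods or with covariates. Replicates were separate mice. Ponatinib 10 mg/kg mouse 8 stood apart in several of the markers, and the differences and correlations of the markers that it moves are given with and without it. The lists of other genes were fitted with it only.

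The markers were present in every library. Their summed level ranged from 162 CPM in ponatinib 10 mg/kg mouse 8 to 700 CPM in a control mouse. Lymphatic markers were sparse. Of the genes listed for continuous and large-vessel endothelium, Cd34 and Vwf were low, and Plvap, the diaphragm protein of fenestrated vessels, was higher. The lymphatic chemokine Ccl21a had no read in any of the 56 mice, the lymphatic marker Pdpn had a read in 22 mice and at most 25 reads, and the mean over all mice was 2.53 CPM for Cd34, 9.82 CPM for Vwf and 84.9 CPM for Plvap. Hepatocyte genes took far more of each library, with a summed level of 64790 to 146000 CPM over 9 genes. In such whole-liver RNA, fewer sinusoidal cells and less marker RNA per cell cannot be told apart.

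Levels of different genes were compared per kilobase of exon, as CPM divided by the merged exon length of the gene. In control mice Eng and Clec4g stood highest, with medians of 22.6 and 17.5 CPM per kb. A middle tier of Cdh5, Stab2, Fcgr2b, Stab1, Oit3 and Gpr182 had medians of 7.91, 7.78, 7.51, 7.14, 6.68 and 5.90 CPM per kb. Pecam1 with 3.27 and Lyve1 with 2.36 CPM per kb were the lowest. Merged exon length counts rare exons too. It was 6228 bases against 3441 for the longest transcript in Pecam1, 5790 against 3544 in Fcgr2b and 2462 against 1442 in Clec4g. In Eng it was 4048 against 3422. The levels per length of Pecam1, Fcgr2b and Clec4g are therefore low estimates, and the order of the markers, Eng and Clec4g included, depends on the length used.

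**Figure D1:**
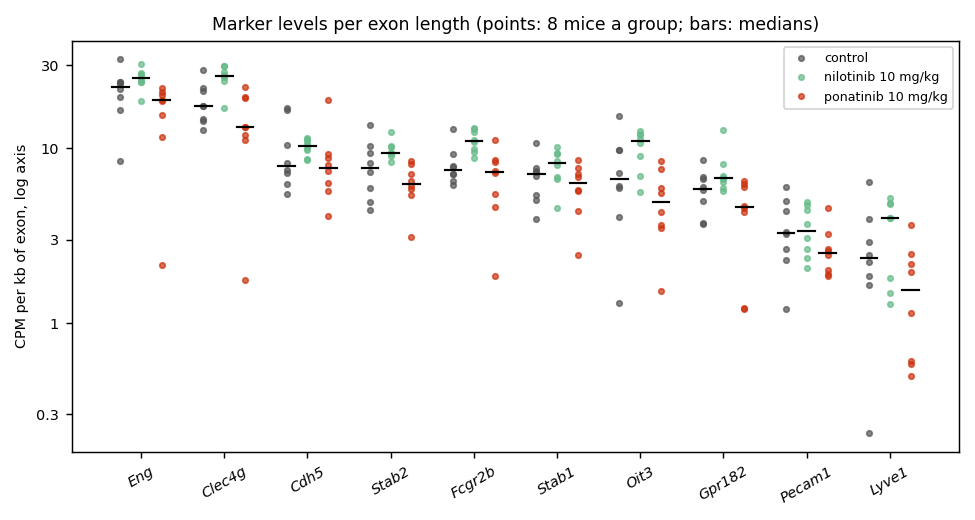
CPM per kb of exon on a log axis for each marker in control, nilotinib 10 mg/kg and ponatinib 10 mg/kg mice; points are mice (8 per group) and bars are medians. Eng and Clec4g were the highest (22.6 and 17.5 CPM per kb in controls) and Lyve1 the lowest (2.36), and the single low points of Eng and Clec4g in ponatinib belong to mouse 8.

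Lyve1 had the fewest reads and the widest spread. Its counts ran from 5 to 1110 reads per library, and its CPM had a coefficient of variation of 60.8% over the 56 mice, against 28.9% for Stab1 and for Stab2. Lyve1 differences are therefore the least precise of the 10, with standard errors of 0.43 to 0.44 on the log2 scale against 0.16 for Stab2.

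Stab2, Oit3 and Gpr182 lie on chromosome 10 and Clec4g and Cdh5 on chromosome 8, and the other 5 markers each lie on a chromosome of their own (14, 7, 1, 11 and 2 for Stab1, Lyve1, Fcgr2b, Pecam1 and Eng). On GRCm38 with GENCODE vM21, Stab2 spans chromosome 10 from 86841198 to 87008025 on the minus strand in 72 exon blocks, Clec4g chromosome 8 from 3707064 to 3720651 on the minus strand, Fcgr2b chromosome 1 from 170958617 to 170976547 on the minus strand, and Eng chromosome 2 from 32646595 to 32682669 on the plus strand. RefSeq promoter sequence (GRCm38.p6) was at hand for 5 of the 10 markers, Stab1, Stab2, Clec4g, Fcgr2b and Eng. Bases immediately before the GENCODE gene start are shown for the 2 markers with the lowest adjusted p in the ponatinib to nilotinib comparison, Stab2 and Clec4g. They are also shown for Eng, the most abundant marker in controls per kilobase of merged exon. Stab2 covers chr10:87008026-87008192 on the minus strand, Clec4g chr8:3720652-3720901 on the minus strand and Eng chr2:32646345-32646594 on the plus strand. Capitals mark a match to GGAAGT, a core of ETS factor sites, which in Eng lies on the other strand and is read there as its reverse complement.
Stab2: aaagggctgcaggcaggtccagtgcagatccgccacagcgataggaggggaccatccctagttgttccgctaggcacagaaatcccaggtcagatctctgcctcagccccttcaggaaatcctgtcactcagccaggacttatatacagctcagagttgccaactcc
Clec4g: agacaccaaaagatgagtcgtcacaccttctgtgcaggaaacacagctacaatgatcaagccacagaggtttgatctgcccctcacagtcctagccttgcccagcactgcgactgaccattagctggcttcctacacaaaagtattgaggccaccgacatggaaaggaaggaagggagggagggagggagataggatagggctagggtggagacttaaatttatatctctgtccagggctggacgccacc
Eng: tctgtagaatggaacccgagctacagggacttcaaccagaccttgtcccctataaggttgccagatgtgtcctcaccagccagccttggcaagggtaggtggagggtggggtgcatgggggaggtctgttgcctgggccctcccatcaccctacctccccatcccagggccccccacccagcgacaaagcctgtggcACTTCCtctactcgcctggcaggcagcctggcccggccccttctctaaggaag

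Over the 250 bases before the RefSeq start, Eng and Fcgr2b each held 1 match to this core on either strand, and Stab1, Stab2 and Clec4g held none. The Fcgr2b window, chr1:170976072-170976321, lies wholly inside the GENCODE gene, which runs to 170976547 on the minus strand, and is not upstream of its GENCODE start. Of 32851 mouse promoter windows of the same length, 19.7% held such a match. No window of the 5 held GATAA on either strand, a GATA factor core, which 22.6% of all windows held. These are letter matches in short windows and say nothing of binding. Exons of Stab1, Stab2, Clec4g, Fcgr2b, Gpr182 and Eng overlap an exon of a gene on the other strand by 61 to 155 bases, and since the strand setting of the counting is not given in the sources used here, reads there cannot be told apart.

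At 10 mg/kg once daily, 3 of 10 markers, Stab2, Clec4g and Fcgr2b, were lower with ponatinib than with nilotinib. The dose was equal in mg/kg only, being the higher of the ponatinib and the lower of the nilotinib doses, and equal exposure to the drugs is not implied. Across all genes 2.06% were called in this comparison, 1.03% as lower. All 10 markers had a negative log2 fold change, with a median of -0.67, beside a median of 0.01 over all 14314 genes. Without ponatinib mouse 8 the median was -0.59, and all 10 were again negative. At an unadjusted p below 0.01, 6 of 10 markers passed, against 6.73% of all genes.

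Stab2 showed the clearest separation. Its CPM ran from 27.1 through a median of 55.0 to 74.1 with ponatinib 10 mg/kg, and from 73.5 through 82.8 to 108 with nilotinib 10 mg/kg. Of the 8 ponatinib mice, 7 lay below every nilotinib mouse. The log2 fold change was -0.63 ± 0.16 (SE; 95% interval -0.96 to -0.30; edgeR adjusted p = 0.0238). An exact two-sided permutation test of mean log2 CPM gave p = 0.000311, unadjusted, where 8 mice against 8 allow 0.000155 at the least.

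Clec4g, the lectin gene, ran from 4.36 through 32.8 to 55.6 CPM with ponatinib and from 41.8 through 64.2 to 73.1 CPM with nilotinib. All 8 ponatinib mice were below the nilotinib median and 5 were below every nilotinib mouse, so the groups overlapped at their edges. The log2 fold change was -0.86 ± 0.24 (SE; 95% interval -1.35 to -0.38; edgeR adjusted p = 0.040). Without mouse 8 it was -0.69 (edgeR adjusted p = 0.0449). That mouse had the highest level of the acute-phase gene Saa1 of all 56, 11880 CPM, where the others reached 1591 CPM, and the lowest level of Clec4g, Fcgr2b, Gpr182, Stab1 and Eng. The part of this in the result was not tested.

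Fcgr2b ran from 10.8 through 42.5 to 64.4 CPM with ponatinib and from 50.9 through 64.0 to 75.5 CPM with nilotinib. A single ponatinib mouse reached the nilotinib range, and the other 7 were below it. The log2 fold change was -0.70 ± 0.20 (SE; edgeR adjusted p = 0.0492). Without mouse 8 it was -0.56 (edgeR adjusted p = 0.0791), past the threshold no longer.

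The other scavenger receptor gene, Stab1, ran from 25.3 through 65.0 to 88.3 CPM with ponatinib and from 46.7 through 84.9 to 105 CPM with nilotinib (log2 fold change -0.38 ± 0.19, edgeR adjusted p = 0.316, and -0.27 without mouse 8). The hyaluronan receptor gene Lyve1 had the most negative fold change, -1.07 ± 0.43, but its adjusted p in edgeR was 0.190 (-0.95 without mouse 8). Its medians were 4.51 CPM with ponatinib and 11.7 CPM with nilotinib, and 4 ponatinib mice lay below every nilotinib mouse.

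Oit3 had medians of 13.8 and 30.9 CPM (log2 fold change -0.98 ± 0.30, edgeR adjusted p = 0.066), and Gpr182 of 18.3 and 26.8 CPM (-0.77 ± 0.24, edgeR adjusted p = 0.0639). Eng, the BMP9 co-receptor gene, had medians of 76.6 and 103 CPM (-0.63 ± 0.22, edgeR adjusted p = 0.118). In these 3 genes every ponatinib mouse was below the nilotinib median, and the exact permutation p, unadjusted, was 0.00264, 0.0042 and 0.00171. Without mouse 8 the fold changes were -0.84, -0.63 and -0.46 (edgeR adjusted p = 0.114, 0.11 and 0.153). The general endothelial adhesion genes had -0.39 ± 0.24 for Pecam1 and -0.26 ± 0.21 for Cdh5 (edgeR adjusted p = 0.444 and 0.630).

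These calls lay close to the threshold. Fitting only the 16 mice of both groups kept the fold changes (Stab2 -0.64, Clec4g -0.87, Fcgr2b -0.70) but called none (adjusted p in edgeR = 0.086, 0.192 and 0.189, unadjusted 0.000544, 0.0056 and 0.0053). Leaving out a mouse at a time gave 0 to 5 calls. There were none without nilotinib mouse 30 or ponatinib mouse 35, 1 without nilotinib mouse 3, 25 or 43 or without ponatinib mouse 42, and 5 without ponatinib mouse 18. The Stab2 call was lost without nilotinib mouse 30 (edgeR adjusted p = 0.0633) and without ponatinib mouse 35 (0.052). The Clec4g call was lost in 9 of the 56 fits, without nilotinib mouse 3, 19, 25, 30 or 43 or ponatinib mouse 2, 35, 42 or 48, with an adjusted p of at most 0.0795, and the Fcgr2b call was lost in 39 of the 56, among them fits without a mouse of a group outside the comparison. DESeq2 called 5 markers here (Oit3 and Gpr182 also) and limma 2 (Clec4g and Fcgr2b). No marker was called once the length slope of each library was a covariate (Stab2 -0.65, Clec4g -0.85, Fcgr2b -0.68).

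**Figure D2:**
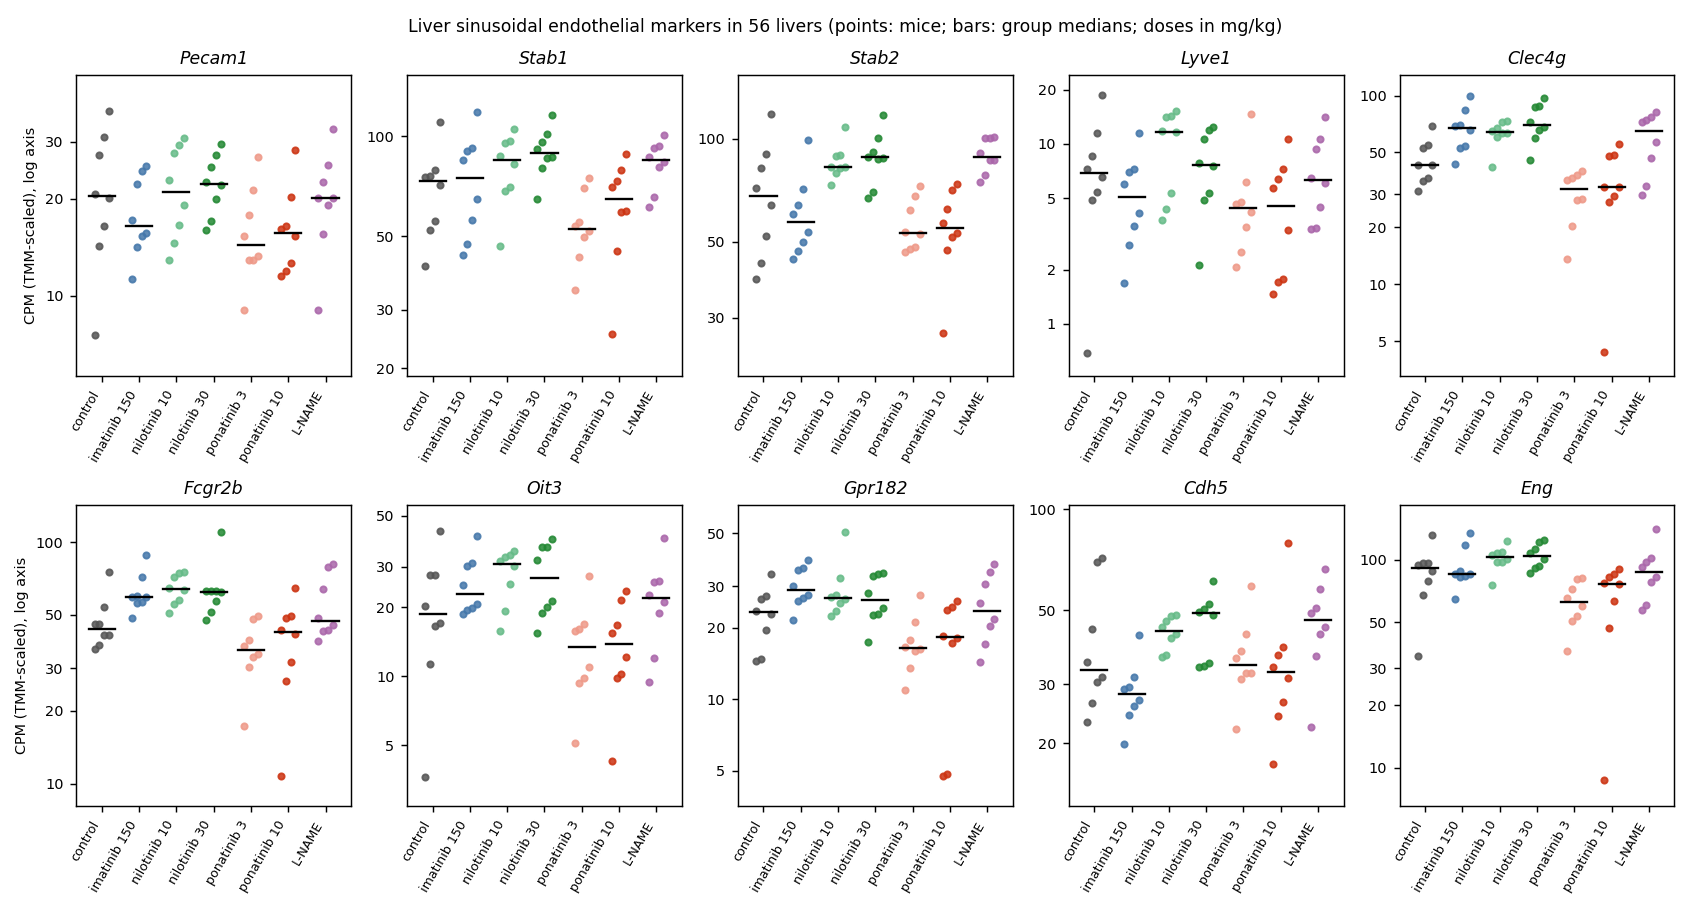
CPM of each marker on a log axis, by group; points are mice (8 per group), bars are group medians and doses are in mg/kg. Both ponatinib groups had the lowest medians in 9 of 10 markers, Cdh5 being the exception, and mouse 8 is the lowest ponatinib 10 mg/kg point in Clec4g (4.36 CPM) and Eng (8.73 CPM).

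Against control, ponatinib lowered no marker beyond the adjusted threshold at either dose. The fold changes were negative for all 10 markers at 3 mg/kg (median -0.42) and at 10 mg/kg (median -0.39), where the median of all genes was -0.01 at both. With the length slope as a covariate the median at 3 mg/kg was -0.31, with 9 of 10 negative. At 10 mg/kg it was -0.20, with 7 of 10 negative. At 3 mg/kg 0 of 10 markers were called, as were 0.0419% of all genes, and 2 of 10 had an unadjusted p below 0.05, against 9.96% of all genes. At 10 mg/kg 0 of 10 were called against 13.1% of all genes, and 1 of 10 had an unadjusted p below 0.05 against 25.8%. DESeq2 and limma also called 0 of 10 at both doses.

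Clec4g was the lowest against control at 3 mg/kg. Its CPM ran from 13.6 through 32.0 to 40.0 with ponatinib 3 mg/kg and from 31.4 through 43.1 to 69.4 in control mice. All 8 treated mice lay below the control median and 4 below every control. The change was -0.61 ± 0.24 (edgeR adjusted p = 0.348), and the exact permutation p, unadjusted, was 0.0107. Eng ran from 36.3 through 62.7 to 81.9 CPM against 34.3 through 91.5 to 131 CPM in controls, with all 8 treated mice below the control median (-0.46 ± 0.22, edgeR adjusted p = 0.473).

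The marker concerned at 10 mg/kg was Stab2, at -0.34 ± 0.16 (edgeR adjusted p = 0.171). Its ponatinib mice at a median of 55.0 CPM lay within the control range of 39.1 to 119 CPM apart from mouse 18 at 27.1 CPM. Eng again had all 8 treated mice below the control median of 91.5 CPM (-0.38 ± 0.22, edgeR adjusted p = 0.278). Without mouse 8 the 10 fold changes against control were still all negative, with a median of -0.25 and Stab1 at -0.05.

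The 2 ponatinib doses did not separate in these genes. In the direct comparison of 10 with 3 mg/kg, 0 of 10 markers were called, against 1.39% of all genes, and none had an unadjusted p below 0.05. DESeq2 and limma called none either. The differences ran from -0.16 for Lyve1 (95% interval -1.03 to 0.72) to 0.22 for Clec4g (-0.27 to 0.70). For Stab2, the most precise, the difference was -0.03 and its interval ran from -0.36 to 0.31. The median of the 10 was 0.03, with 6 above 0. It was 0.16, with 9 above 0, with the length slope as a covariate. With the share outside genes as a covariate it was -0.04, with 9 below 0.

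With nilotinib the fold changes against control were mostly positive. They were above 0 for 9 of 10 markers at 10 mg/kg and at 30 mg/kg, with a median of 0.31 at each dose, beside 0.01 and 0.03 over all genes. At 30 mg/kg the median was 0.15 with the share of reads outside genes as a covariate and 0.48 with the length slope. No marker was called at either dose. At 10 mg/kg this was 0 of 10 against 1.41% of all genes, with 1 of 10 against 14.2% at an unadjusted p below 0.05. At 30 mg/kg it was 0 of 10 against 5.77%, with 3 of 10 against 18.7%. DESeq2 and limma called 0 at 10 mg/kg, and each called Clec4g at 30 mg/kg.

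Clec4g and Fcgr2b had the highest fold changes. Clec4g ran from 45.6 through 70.1 to 97.7 CPM with nilotinib 30 mg/kg, where 4 of 8 mice lay above every control and all 8 above the control median of 43.1 CPM. The log2 fold change was 0.67 ± 0.24 (edgeR adjusted p = 0.0819), and when ponatinib mouse 8 was left out of the shared fit the standard error was 0.19 and the adjusted p 0.0249. At 10 mg/kg the change was 0.47 ± 0.24 (edgeR adjusted p = 0.369), with medians of 64.2 and 43.1 CPM.

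Fcgr2b ran from 50.9 through 64.0 to 75.5 CPM with nilotinib 10 mg/kg and from 47.8 through 62.3 to 110 CPM at 30 mg/kg, against 36.0 through 43.5 to 75.3 CPM in controls. All 8 mice of each dose were above the control median. The log2 fold changes were 0.45 ± 0.20 and 0.46 ± 0.20 (edgeR adjusted p = 0.275 and 0.189). Stab2 had 8 and 7 mice above the control median, with 0.29 ± 0.16 and 0.34 ± 0.16 (edgeR adjusted p = 0.437 and 0.250). Cdh5 also had all 8 mice of each dose above the control median of 33.2 CPM, yet its fold changes were 0.05 ± 0.21 and 0.14 ± 0.21, since 2 controls were above 60 CPM.

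Between nilotinib 30 and 10 mg/kg, 0 of 10 markers and 0% of all genes were called, and no marker had an unadjusted p below 0.05. DESeq2 and limma called no marker. The largest difference was that of Lyve1, -0.35 (95% interval -1.21 to 0.50). Stab2 differed by 0.05 (-0.28 to 0.38) and Fcgr2b by 0.01 (-0.40 to 0.41).

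**Figure D3:**
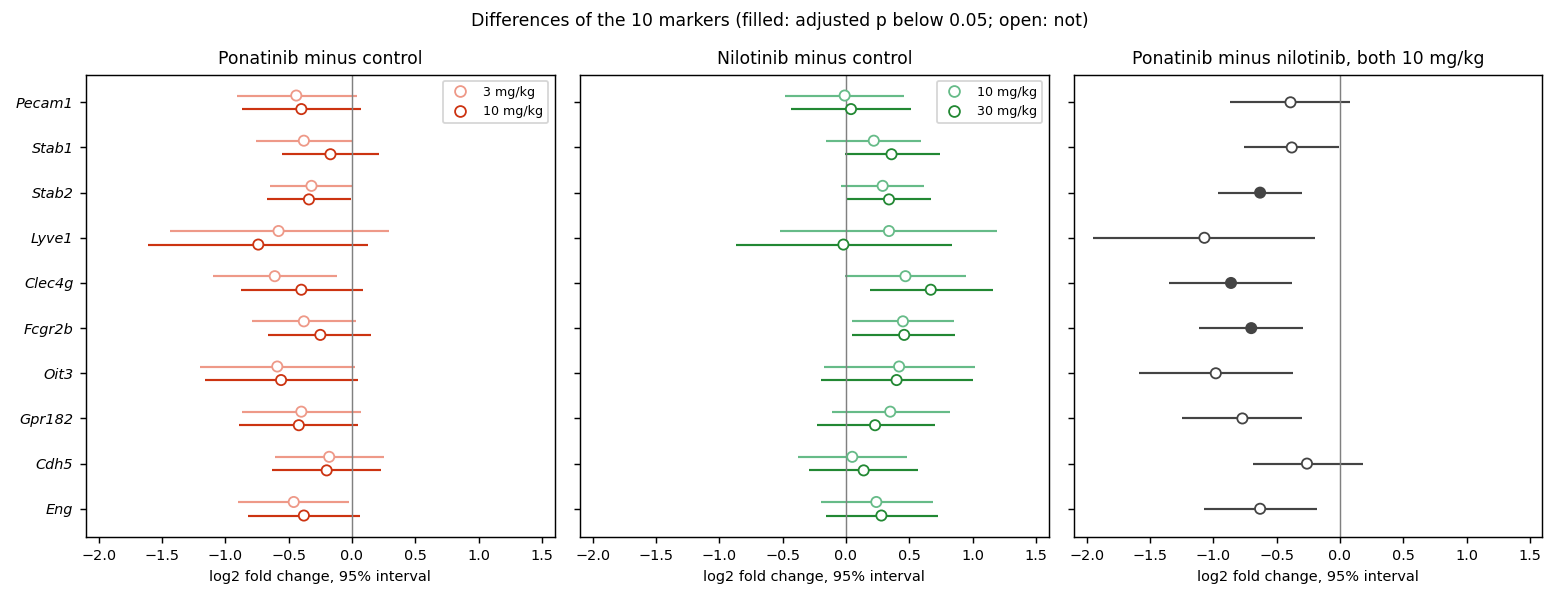
log2 fold changes of the 10 markers with 95% intervals for ponatinib against control, nilotinib against control, and ponatinib against nilotinib at 10 mg/kg; filled points had an adjusted p below 0.05. The points lie left of 0 for ponatinib (medians -0.42 and -0.39), mostly right of 0 for nilotinib (0.31 at both doses), and Stab2, Clec4g and Fcgr2b are the filled points of the third panel.

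With imatinib the fold changes pointed both ways, with a median of 0.10, which was -0.06 with the share outside genes as a covariate and 0.34 with the length slope. Of the 10 markers 0 were called, against 10.3% of all genes, and 3 of 10 had an unadjusted p below 0.05, against 23.5% of all genes. These were Clec4g and Fcgr2b with positive and Cdh5 with negative fold changes. DESeq2 called none and limma with sample weights called Cdh5 (-0.72). Fitting only imatinib and control mice, edgeR called Clec4g.

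Clec4g ran from 43.7 through 67.5 to 99.6 CPM with imatinib, all 8 mice above the control median of 43.1 CPM and 3 above every control. The log2 fold change was 0.56 ± 0.24 (edgeR adjusted p = 0.134), and the exact permutation p, unadjusted, was 0.0137. Fcgr2b ran from 48.7 through 59.5 to 88.6 CPM, again with all 8 mice above the control median (0.41 ± 0.20, edgeR adjusted p = 0.202). Cdh5 ran from 19.9 through 28.0 to 42.3 CPM against 23.2 through 33.2 to 71.4 CPM in controls, with 7 of 8 mice below the control median (-0.53 ± 0.22, edgeR adjusted p = 0.108). Within a library the lectin gene stood further above the cadherin gene with imatinib. The difference of log2 CPM, Clec4g minus Cdh5, had a median of 1.13 with imatinib (0.46 to 1.87) and of 0.28 in controls (-0.44 to 0.84), which is given as a description.

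L-NAME, the nitric oxide synthase inhibitor, called 0 of 10 markers against 11.8% of all genes, and 1 of 10 had an unadjusted p below 0.05 against 24.2% of all genes. DESeq2 and limma called none. That marker was Stab2, with a median of 88.9 CPM and a highest value of 102 CPM in treated mice, all 8 above the control median of 68.1 CPM. Its change was 0.36 ± 0.16 (edgeR adjusted p = 0.159). Without control mouse 46 it was 0.50 (adjusted p = 0.0384). The other 9 fold changes ran from -0.13 for Lyve1 to 0.37 for Clec4g, and without the deep library of mouse 10 the median of the 10 moved from 0.14 to 0.10. It was -0.02, with 6 of 10 below 0, with the share outside genes as a covariate, and 0.39, with 9 of 10 above 0, with the length slope.

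A test for any difference among the 7 groups called 7 of 10 markers, against 18.7% of all genes. Clec4g (edgeR adjusted p = 0.000138), Stab2 (0.000358) and Fcgr2b (0.00189) had the smallest p, followed by Gpr182 (0.0181), Oit3 (0.0211), Stab1 (0.0267) and Eng (0.0388). Pecam1, Lyve1 and Cdh5 were not called (edgeR adjusted p = 0.442, 0.343 and 0.127). The Eng call was lost in 11 of the 56 fits that left out a mouse (adjusted p up to 0.0714). These were the fits without ponatinib 3 mg/kg mouse 7, 13, 17, 29 or 41, ponatinib 10 mg/kg mouse 35 or 42, nilotinib 10 mg/kg mouse 30, or nilotinib 30 mg/kg mouse 15, 31 or 44. The Stab1 call was lost without ponatinib 3 mg/kg mouse 23 (0.0575) or 29 (0.0519), and Cdh5 was called without ponatinib 10 mg/kg mouse 24 (0.0176). Stab1 and Eng were not called with the share outside genes (edgeR adjusted p = 0.0708 and 0.066) or the length slope (0.0723 and 0.0633) as a covariate, which left 5 of 10. Limma called 9 of 10, with Pecam1 and Cdh5 added. The 18.7% of all genes belongs to the main edgeR fit. No such share is given for the covariate or limma fits, so their counts of markers have no background beside them.

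The order of the group medians was alike in most markers. Ponatinib 3 mg/kg had the lowest median in 9 of 10 markers, and ponatinib 10 mg/kg was among the lowest pair in all 10. In Cdh5 the lowest median was that of imatinib, 28.0 CPM. A nilotinib group had the highest median in 8 of 10 markers, Gpr182 (imatinib, 28.8 CPM) and Stab2 (L-NAME, 88.9 CPM) being the others. In every marker all 6 pairs of neighbouring groups in this order overlapped in their mice.

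Within groups, some markers varied together from mouse to mouse. Likeness was measured as Pearson's r of log2 CPM over the 56 mice after the mean of each group was subtracted, as a description. Both genes of a pair come from the same libraries. Clec4g and Eng had r = 0.84, and 0.67 without mouse 8. Fcgr2b and Eng had r = 0.77 (0.61 without), and Clec4g and Fcgr2b r = 0.74 (0.57 without). Pecam1 and Oit3 had r = 0.73 with and without it.

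Stab2 stood apart from this group, with r between -0.06 (Lyve1) and 0.44 (Stab1) to the other markers. The 3 genes most like it were Zmym3 (r = 0.57), Rit1 (0.54) and Rps18 (0.52), none of which is an endothelial marker. Cdh5 was near 0 to Clec4g (r = 0.03), and the genes most like it were Clec4f (0.69), Mrc1 (0.66) and Cfp (0.62), of which Clec4f is a Kupffer cell lectin and Mrc1 the mannose receptor of sinusoidal endothelium and macrophages. Lyve1 was most like Plekha1 (0.65), Cd38 (0.64) and Col4a1 (0.60).

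For the other markers the most similar genes were largely other endothelial genes. Eng was closest to Aqp1, Dnase1l3 and Plxnd1 (r = 0.86 each, 0.74 to 0.77 without mouse 8), and Clec4g to Aqp1 (0.86), Eng (0.84) and Ptprb (0.81), which were 0.74, 0.67 and 0.62 without it. Oit3 was closest to Dnase1l3 (0.81 with and without mouse 8). Fcgr2b was closest to Kdr (0.78, and 0.66 without), Gpr182 to Kdr (0.71, and 0.61 without) and Stab1 to Plxnd1 and Flt4 (0.69 each, and 0.58 without). Dnase1l3 is a DNase secreted by these cells and macrophages, and Kdr and Flt4 are VEGF receptors.

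**Figure D4:**
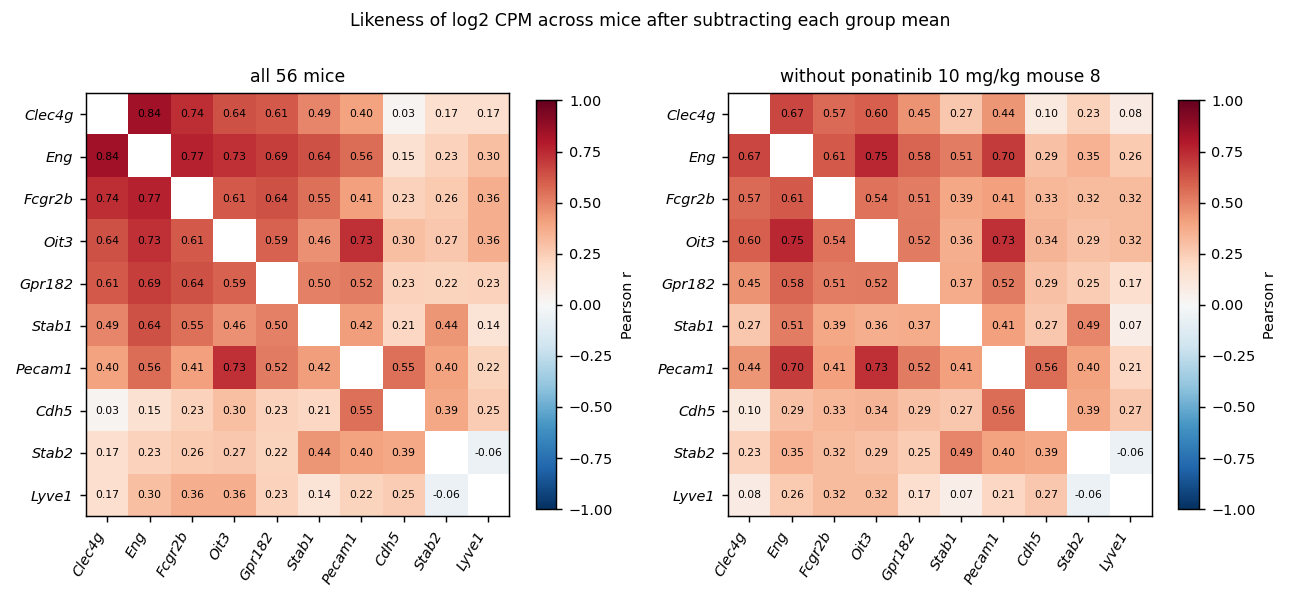
Pearson's r between markers for log2 CPM after subtracting group means, over all 56 mice and without ponatinib 10 mg/kg mouse 8. Clec4g, Eng, Fcgr2b, Oit3 and Gpr182 form a block of higher values (0.59 to 0.84 with all mice, 0.45 to 0.75 without mouse 8), and Stab2, Lyve1 and Cdh5 lie outside it. The block is not sharply bounded. Without mouse 8 Pecam1 had 0.73 to Oit3, 0.70 to Eng and 0.52 to Gpr182, but 0.44 to Clec4g and 0.41 to Fcgr2b. Its value to Eng was 0.56 with all mice.

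Of 11 further genes enriched in sinusoidal endothelium, 10 were tested (Cd209b had too few reads). With ponatinib against nilotinib at 10 mg/kg 3 of 10 were called, all lower. These were Maf, a transcription factor (-0.67 ± 0.14, edgeR adjusted p = 0.00489), Bmp2, which signals iron status to hepatocytes (-1.09 ± 0.26, edgeR adjusted p = 0.0137), and Mrc1, the mannose receptor (-0.62 ± 0.18, edgeR adjusted p = 0.0407). The median of the 10 was -0.74. Against control, ponatinib 10 mg/kg lowered Maf (-0.43, edgeR adjusted p = 0.0277) and F8, coagulation factor VIII (-0.94, edgeR adjusted p = 0.0474), and L-NAME raised Clec1b, a C-type lectin (0.78, edgeR adjusted p = 0.0282). The test among the 7 groups called 7 of 10.

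Among 17 genes of endothelial cells in general, Egfl7, a secreted endothelial protein, rose with imatinib (0.66), nilotinib 10 mg/kg (0.77), nilotinib 30 mg/kg (1.01) and L-NAME (0.89; edgeR adjusted p = 0.0248, 0.0367, 0.00125 and 0.00175). Controls averaged 28.6 ± 4.46 CPM of it, and nilotinib 30 mg/kg mice 57.7 ± 15.8 (SD over 8 mice each). Cldn5, a tight junction claudin, was lower with ponatinib than with nilotinib at 10 mg/kg, a mean of 3.71 ± 2.13 CPM against 13.4 ± 7.14 (SD over 8 mice; log2 fold change -1.85 ± 0.39, edgeR adjusted p = 0.00617). No other gene of the 17 was called against control or between the drugs, while the test among the 7 groups called 6 of 17.

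Genes of continuous and large-vessel endothelium gave no calls. None of the 8 tested was called in any comparison against control, between the drugs or among the 7 groups. Over all genes 2.06% were called between the drugs at 10 mg/kg and 18.7% among the 7 groups. The most abundant, Plvap, the diaphragm protein of fenestrated vessels, averaged 84.9 CPM over all mice and had a fold change of -0.22 ± 0.17 for ponatinib against nilotinib at 10 mg/kg (edgeR adjusted p = 0.571). Vwf, von Willebrand factor, had 0.26 ± 0.43 (edgeR adjusted p = 0.838). Sele, Gja5, Selp, Ackr1, Cd34 and Efnb2 averaged 0.403, 0.982, 2.01, 2.20, 2.53 and 3.47 CPM. At such levels large differences can go uncalled. Against control, Cd34 had -1.73 ± 0.65 with ponatinib 3 mg/kg (edgeR adjusted p = 0.316). Vwf had -1.04 ± 0.43 with L-NAME (edgeR adjusted p = 0.106). Of 3 lymphatic markers only Mmrn1 was tested, at a mean of 0.758 CPM, and it was not called.

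The pathway around endoglin showed no calls. Of 14 ligands, receptors, SMADs and targets of BMP9 and BMP10, 0 were called in any comparison, the test among the 7 groups included. Over all genes 2.06% were called between ponatinib and nilotinib at 10 mg/kg, and 18.7% in the test among the 7 groups. Id2 and Id3, transcriptional targets and the most abundant of the list, had 0.14 ± 0.20 and -0.06 ± 0.23 for ponatinib against nilotinib at 10 mg/kg (edgeR adjusted p = 0.800 and 0.935). The list median there was -0.12. Against control the target gene Id1 had 0.94 with imatinib, 0.87 with ponatinib 3 mg/kg and 0.90 with L-NAME (edgeR adjusted p = 0.119, 0.434 and 0.13). With nilotinib 10 and 30 mg/kg Id1 had 0.92 and 0.78 (edgeR adjusted p = 0.245 and 0.27). Id3 had 0.61 and 0.65 there (edgeR adjusted p = 0.164 and 0.0806), 0.55 with L-NAME, 0.26 with imatinib and 0.0 with ponatinib 3 mg/kg. The values of Id1 and Id3 with ponatinib 10 mg/kg against control are not given here, and neither gene was called there.

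Around Fcgr2b, the other Fc receptor genes behaved differently with imatinib. Of 6 genes, Fcgrt, the neonatal Fc receptor, rose (0.52, edgeR adjusted p = 0.0026), and the activating receptor genes Fcgr3 (-1.23) and Fcgr1 (-1.16) and the phosphatase gene Inpp5d (-0.78) fell (edgeR adjusted p = 0.00465, 0.021 and 0.045). Fcgr2b itself was at 0.41 in this comparison. These genes are expressed by macrophages too. With nilotinib, ponatinib and L-NAME 0 of the 6 were called against control. Of all genes, 10.3% were called with imatinib. The test among the 7 groups called all of the 6 but Fcgr4 (edgeR adjusted p = 0.0511), against 18.7% of all genes.

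Some catenins and junction partners of VE-cadherin were called against control. Ctnna1 (alpha-catenin) and Ctnnb1 (beta-catenin) fell with imatinib, nilotinib 30 mg/kg, ponatinib 10 mg/kg and L-NAME, Ctnnb1 by 0.47, 0.40, 0.49 and 0.52 on the log2 scale (edgeR adjusted p = 0.00434, 0.0205, 0.00193 and 0.00118). Ctnnd1 (p120-catenin) rose with ponatinib 10 mg/kg (0.56) and L-NAME (0.55; edgeR adjusted p = 0.00835 and 0.0095). Vcl fell with imatinib (-0.81, edgeR adjusted p = 0.00233), the smallest p of the list there. Tjp1 fell with imatinib (-0.50), nilotinib 30 mg/kg (-0.57) and L-NAME (-0.54; edgeR adjusted p = 0.0248, 0.0136 and 0.0112). Of the 8 genes, 4 were called with each of imatinib, nilotinib 30 mg/kg and ponatinib 10 mg/kg, and 5 with L-NAME. None was called with nilotinib 10 mg/kg or ponatinib 3 mg/kg. In the same order, 10.3, 5.77, 13.1, 11.8, 1.41 and 0.0419% of all genes were called. The groups with calls had median length slopes below 0 (-0.0544, -0.027, -0.0628 and -0.0366). Those without had 0.0271 and 0.033, and controls 0.118. The part of the slope was not tested for these genes. Hepatocytes express these genes as well, and 0 were called in the ponatinib to nilotinib comparison.

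Hyaluronan genes gave single calls in the comparisons between pairs of groups. Of 9 genes 5 were tested, the synthases Has1, Has2 and Has3 and the hyaluronidase Cemip being too low. Cd44, a hyaluronan receptor of many leukocytes, fell with imatinib (-1.14, edgeR adjusted p = 0.00619), and Hyal1 fell with nilotinib 30 mg/kg (-0.74, edgeR adjusted p = 0.0136). Cemip2 was lower with ponatinib than with nilotinib at 10 mg/kg (-0.97, edgeR adjusted p = 0.0309). In these comparisons 10.3, 5.77 and 2.06% of all genes were called. The test among the 7 groups called Cd44, Hyal1 and Cemip2 (edgeR adjusted p = 0.00248, 0.0103 and 0.0247) but not Hyal2 or Hmmr, against 18.7% of all genes.

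**Figure D5:**
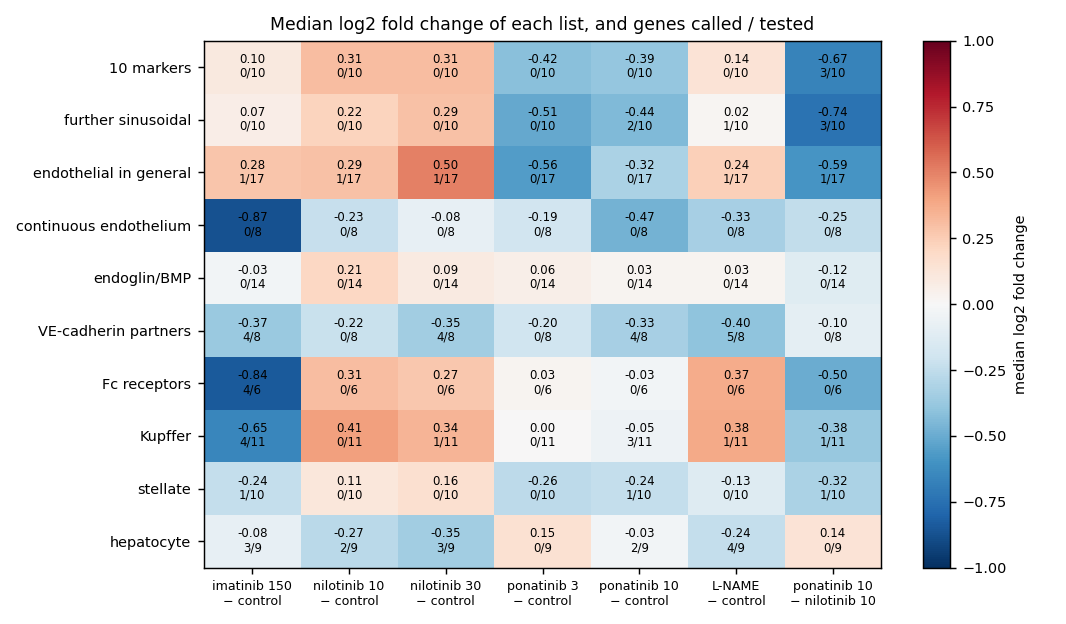
Median log2 fold change of each gene list by comparison, with the genes called and tested under each value. The 10 markers, the further sinusoidal genes and the general endothelial genes share negative medians with ponatinib (-0.67, -0.74 and -0.59 against nilotinib at 10 mg/kg), whereas the endoglin pathway lies near 0 (-0.12).

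Markers of other liver cells moved in part with the same groups. In the ponatinib to nilotinib comparison at 10 mg/kg, 1 of 11 Kupffer cell genes was called (Cd68, -0.99), 1 of 10 stellate cell genes (Lrat, -0.71), 1 of 5 neutrophil and monocyte genes (Ccr2, -1.95) and 0 of 9 hepatocyte genes, with list medians of -0.38, -0.32, 0.32 and 0.14. The summed level of the 10 stellate genes ran from 228 to 918 CPM with ponatinib 10 mg/kg and from 673 to 922 CPM with nilotinib 10 mg/kg. That of the 9 hepatocyte genes ran from 65750 to 135700 CPM and from 73210 to 111700 CPM. With imatinib 4 of 11 Kupffer cell genes fell, among them Cd5l (-1.23) and the F4/80 gene Adgre1 (-1.35), and their summed level was 630 to 1238 CPM against 991 to 1871 CPM in controls. In other comparisons with control the Kupffer cell lectin gene Clec4f rose with nilotinib 30 mg/kg (0.64), ponatinib 10 mg/kg (0.61) and L-NAME (0.69; edgeR adjusted p = 0.0282, 0.0216 and 0.00884). With ponatinib 10 mg/kg Marco rose too (2.32) and Cd68 fell (-0.81). Mouse 8 of that group had 380 CPM of Marco, and its other mice ran from 4.45 through a median of 30.9 to 274 CPM. Controls averaged 25.9 ± 46.2 CPM of Marco (SD over 8 mice). Of 9 hepatocyte genes, Cps1, Hnf4a and Tat fell with nilotinib 30 mg/kg (-0.87, -0.53 and -0.87) and with L-NAME (-0.90, -0.47 and -0.78), and Glul fell with L-NAME (-0.41). Cps1 and Tat also fell with imatinib (-0.92 and -0.62) and nilotinib 10 mg/kg (-0.81 and -0.73), and Cps1 fell with ponatinib 10 mg/kg (-0.86). The transport protein gene Ttr rose with imatinib (0.45) and ponatinib 10 mg/kg (0.73). Cholangiocyte, lymphocyte, platelet and erythroid lists had 0 called of 5, 8, 3 and 2 in the ponatinib to nilotinib comparison, with medians of -0.01, -0.48, 0.48 and 0.97. The part of these cells in the marker differences was not tested.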

How the data were processed

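The authors aligned reads of liver poly(A) RNA to GRCm38 with TopHat2 2.0.14 and Bowtie2 2.1.0 and deposited raw read counts per Ensembl gene, made with HTSeq 0.6.1p1 (SAMtools 0.1.18), 1 table per mouse. Reads outside genes or ambiguous were left out of library sizes. The markers were found by symbol in GENCODE vM21. Counts were filtered by filterByExpr, scaled by TMM and fitted over all 56 mice with the quasi-likelihood test of edgeR 4.0.16 (R 4.3.3), and p-values were adjusted over all 14314 genes by Benjamini-Hochberg. Intervals used 49 residual degrees of freedom. DESeq2 1.42.0, limma 3.58.1, other scalings, covariates, fits of both groups alone and leaving out each mouse were alternatives. The fits were tested on simulated data. Exact permutation tests compared mean log2 CPM (prior count 2). The markers and lists were chosen with earlier results of these data known. The rule for each list was to name up to 4 called genes with the smallest adjusted p, and where none was called the 2 most abundant. Not every gene under this rule was named. Id1 and the sparse genes of continuous endothelium were also named, after their values were seen. Likeness named the 3 genes with the highest r.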

Additional observations from a re-analysis of the deposited data

Results flagged for a closer look

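Each marker was examined in each group of 8 mice for a highest or lowest mouse separated from the rest, and 8 of 70 such sets held one. Chance alone separates about 1 in 20. Ponatinib 10 mg/kg mouse 8 was the low mouse for Clec4g (4.36 CPM) and Eng (8.73 CPM), and mouse 18 of that group was the low mouse for Stab2 (27.1 CPM). Ponatinib 3 mg/kg mouse 13 was low for Fcgr2b (17.4 CPM), control mouse 28 for Lyve1 (0.687 CPM) and nilotinib 10 mg/kg mouse 36 for Clec4g (41.8 CPM). Nilotinib 10 mg/kg mouse 3 was high for Gpr182 (50.8 CPM) and nilotinib 30 mg/kg mouse 54 for Fcgr2b (110 CPM). Without control mouse 28 the Lyve1 fold change for ponatinib 10 mg/kg against control was -0.91 in place of -0.74 (edgeR adjusted p = 0.148).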

How the results depend on the processing

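No paired analysis was possible because every mouse has its own number. The number of markers called against control was 0 with all mice. With imatinib it was 1 by limma and 1 with both groups fitted alone. With nilotinib 30 mg/kg it was 1 by DESeq2, limma, both groups alone or an unadjusted p below 0.01, and 0 to 1 when a mouse was left out, as for L-NAME (0 to 1). For ponatinib against nilotinib at 10 mg/kg the 3 calls became 5 by DESeq2, 6 at an unadjusted p below 0.01, 0 with both groups alone, 0 with the length slope as covariate, and 0 to 5 when a mouse was left out. The causes were not tested.

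Signs turned only in fold changes that were not called. With the length slope, added after seeing the data, imatinib gave 0.18 for Pecam1, -0.19 for Stab1 and 0.76 for Lyve1, nilotinib 10 mg/kg 0.27 for Pecam1, nilotinib 30 mg/kg 1.07 for Lyve1, ponatinib 3 mg/kg 0.02 for Cdh5, ponatinib 10 mg/kg 0.01, 0.25 and 0.19 for Pecam1, Lyve1 and Cdh5, and L-NAME 0.37, -0.02 and 1.06 for Pecam1, Stab1 and Lyve1. With reads outside genes as covariate, imatinib gave -0.10 and -0.02 for Stab1 and Eng, nilotinib 30 mg/kg -0.02, 0.06 and -0.02 for Pecam1, Lyve1 and Gpr182, and L-NAME -0.02, -0.10, -0.18 and -0.14 for Stab1, Oit3, Gpr182 and Eng. By limma, Eng was -0.03 with imatinib, Lyve1 -0.02 and Cdh5 -0.11 with nilotinib 10 mg/kg, and Lyve1 0.14 and Cdh5 -0.07 with L-NAME. By RLE scaling and DESeq2, Pecam1 was 0.02 with nilotinib 10 mg/kg and Lyve1 0.00 with nilotinib 30 mg/kg. Differences of mean log2 CPM were 0.07 for Pecam1 with nilotinib 10 mg/kg and 0.18 and 0.07 for Lyve1 with nilotinib 30 mg/kg and L-NAME.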

Other observations

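Ponatinib 10 mg/kg mouse 8 was described further after its values were seen. Acute-phase genes were the highest of the 56 mice there, with Saa2 at 13380 CPM (other mice 5.45 to 1404 CPM), Lcn2 at 1906 CPM (3.27 to 724 CPM) and Orm2 at 1474 CPM (7.84 to 448 CPM). The macrophage scavenger receptor gene Marco was also the highest, at 380 CPM against at most 292 CPM. Kdr (3.90 CPM), Ptprb (6.41 CPM) and Dnase1l3 (4.36 CPM), 3 further endothelial genes, were the lowest of the 56. Cdh5 at 36.9 CPM and Stab2 at 53.2 CPM were within the range of the other ponatinib mice. The lowest single difference of log2 CPM, Clec4g minus Cdh5, was -3.02, in the ponatinib 10 mg/kg group, whose median was 0.05. The lowest group median was -0.28, with ponatinib 3 mg/kg.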
